A study of Mus musculus with 8 samples.

Results

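The genes described here are 9 markers of T and B lymphocytes in the lung of newborn and unborn mice, chosen by name from the 25965 genes with deposited values. They are Cd3d, Cd3e, Cd3g, Cd4 and Cd8a for T cells, Cd79a, Cd79b and Ms4a1 for B cells, and Il7r, which both lineages use. Total RNA of whole lung was sequenced from Wfdc2 +/+ and Wfdc2 GFP/GFP animals at E18.5, shortly before birth, and at P1.5, after it, with 2 libraries from separate animals in each of 4 groups. Wfdc2 encodes a secreted protease inhibitor of the airway epithelium. The Wfdc2 GFP/GFP animals carried an IRES-GFP cassette at both Wfdc2 alleles in every cell of the body, made by homologous recombination in TT2 embryonic stem cells, and its drug resistance gene had been removed by a cross with CAG-Cre mice. Wfdc2 +/+ animals carried no cassette. The study raised the question of what loss of Wfdc2 does to lung gene expression, and the stages allow a comparison across birth as well. In RNA of a whole organ, fewer cells of a type and less RNA per cell cannot be told apart.

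CD3 delta, epsilon and gamma are the invariant chains that carry the signal of the T cell receptor into the cell. CD4 and CD8 alpha are coreceptors that bind MHC class II and class I, and CD4 also occurs on some macrophages, while CD8 alpha also occurs on some dendritic cells. CD79a and CD79b, also called Ig alpha and Ig beta, form the signalling unit of the B cell receptor, and MS4A1, also called CD20, appears on the surface later in B cell development. IL7R is the alpha chain of the receptor for interleukin-7, a cytokine that developing lymphocytes and innate lymphoid cells need. Around birth the lung holds few lymphocytes, and their numbers grow in the weeks that follow.

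The 3 CD3 genes lie side by side on chromosome 9 of mm10. Cd3g (44969572 to 44980431, minus strand) and Cd3d (44981793 to 44987052, plus strand) point away from each other, with 1355 bp between their starts in RefSeq, and Cd3e (44998743 to 45009590, minus strand) follows after a gap of 11690 bp. Promoters are shown for the genes whose RNA differed most clearly between the stages below, Cd3d, Cd3g and Cd79a, and for Cd3e as the neighbour of the first 2. Sequences are those of RefSeq on GRCm38.p6, which is mm10, from 250 bases before to 50 bases after the start of transcription, and 6 of the 9 genes were matched. Cd4, Cd79b and Ms4a1 were not matched. Capitals mark AGGAAG, the core that ETS factors bind in many lymphoid promoters, and CAGGTG, an E-box of the kind bound by E proteins of lymphocytes, both searched on either strand, so that CTTCCT and CACCTG are the same motifs read from the other strand. The 2 motifs did not overlap in these windows.
Cd3d, plus strand, chr9:44981536-44981835: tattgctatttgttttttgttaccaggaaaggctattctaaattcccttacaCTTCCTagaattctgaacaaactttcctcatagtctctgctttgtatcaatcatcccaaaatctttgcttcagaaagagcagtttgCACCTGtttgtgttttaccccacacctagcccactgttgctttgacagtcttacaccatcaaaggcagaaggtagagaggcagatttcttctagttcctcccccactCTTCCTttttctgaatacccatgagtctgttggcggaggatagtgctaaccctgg
Cd3g, minus strand, chr9:44980382-44980681: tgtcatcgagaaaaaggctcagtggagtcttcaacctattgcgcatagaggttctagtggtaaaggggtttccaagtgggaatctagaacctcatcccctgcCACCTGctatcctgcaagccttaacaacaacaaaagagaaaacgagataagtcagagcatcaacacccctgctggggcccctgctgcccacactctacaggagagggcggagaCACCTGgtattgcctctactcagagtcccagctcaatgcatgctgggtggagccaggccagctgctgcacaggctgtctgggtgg
Cd3e, minus strand, chr9:45009562-45009861: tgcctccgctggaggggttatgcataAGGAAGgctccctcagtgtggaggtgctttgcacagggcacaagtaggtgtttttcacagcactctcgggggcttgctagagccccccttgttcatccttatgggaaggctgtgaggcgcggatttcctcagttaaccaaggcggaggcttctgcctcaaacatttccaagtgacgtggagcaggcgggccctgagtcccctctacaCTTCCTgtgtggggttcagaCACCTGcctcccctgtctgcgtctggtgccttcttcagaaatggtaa
Cd79a, plus strand, chr7:24897247-24897546: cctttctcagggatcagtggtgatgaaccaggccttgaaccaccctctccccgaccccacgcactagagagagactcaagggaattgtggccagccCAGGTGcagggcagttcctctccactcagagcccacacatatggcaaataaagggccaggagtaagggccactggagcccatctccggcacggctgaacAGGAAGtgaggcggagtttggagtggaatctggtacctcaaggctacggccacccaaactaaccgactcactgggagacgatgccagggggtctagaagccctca

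Of the 6 promoters matched, 4 held CAGGTG, which is found in 20.2% of the 32851 mouse promoters of the same length, and these were Cd3d, Cd3e, Cd3g and Cd79a. AGGAAG was present in 4 of the 6, Cd3d, Cd3e, Cd79a and Il7r, and in 35.4% of all promoters. Cd3g held CAGGTG at 2 places and no AGGAAG, and the Cd8a window (chromosome 6, 71373177 to 71373476) held neither. Motifs this common are given as a description of the letters only.

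Values are given as read numbers, recovered as whole numbers from the deposited log2 RPKM, as RPM, reads scaled to the total of the library, where libraries are compared, and as log2 RPKM in the tests. Library totals ran from 19457646 to 37209332 reads, so 3 reads, taken here as the limit of detection, corresponded to 0.0806 to 0.154 RPM. Wfdc2 itself had 8038 to 32845 reads in the Wfdc2 +/+ libraries and 0 to 12 in the Wfdc2 GFP/GFP libraries. Replicate 1 of each group carried 4121 to 90980 reads of the female-expressed gene Xist and replicate 2 carried 1 to 13, so replicate number and sex cannot be told apart. Among the genes tested the median log2 RPKM lay between -0.96 and 0.02. E18.5 Wfdc2 GFP/GFP replicate 1 stood apart in several lists below. Libraries were sequenced on either of a pair of Illumina instruments, and which library was run on which is not given in the sources used here.

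Most of the 9 genes were sparse, apart from Cd79b, which had 217 to 919 reads in each library. Summed over the 8 libraries the 9 genes had from 60 reads for Cd8a to 3153 reads for Cd79b. Reads were present in 6 of 8 libraries for Cd3e, in 7 for Cd3g and Cd8a, and in all 8 for the others. Per kilobase of gene, Cd79b was the highest in every library, with a mean of 4.25 RPKM. Cd79a had a mean of 0.779 RPKM and Cd3d of 0.254 RPKM, and Cd79a was above Cd3d in 5 of 8 libraries. Cd3d was above Cd3g (0.0894 RPKM) in all 8. The remaining neighbours in the order, Cd3g, Ms4a1 (0.0557), Cd8a (0.0445), Il7r (0.0298), Cd3e (0.0298) and Cd4 (0.0197), were not separated beyond the spread between libraries, each being above the next in 3 to 5 of 8 libraries. The kilobases are those of the whole gene with introns, which lowers the RPKM of long genes such as Cd4 and Il7r. For testing, a mean of at least 0.05 RPKM was required, which Cd3d, Cd3g, Cd79a, Cd79b and Ms4a1 met. Cd3e, Cd4, Cd8a and Il7r did not meet it and are given from a fit over all 25965 genes without a filter. Over the E18.5 libraries alone, Cd3g (0.00977 RPKM) and Ms4a1 (0.0214 RPKM) were under this minimum, so they were tested only because of their P1.5 values, and the genes tested are not a sample of all 9.

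**Figure D1:**
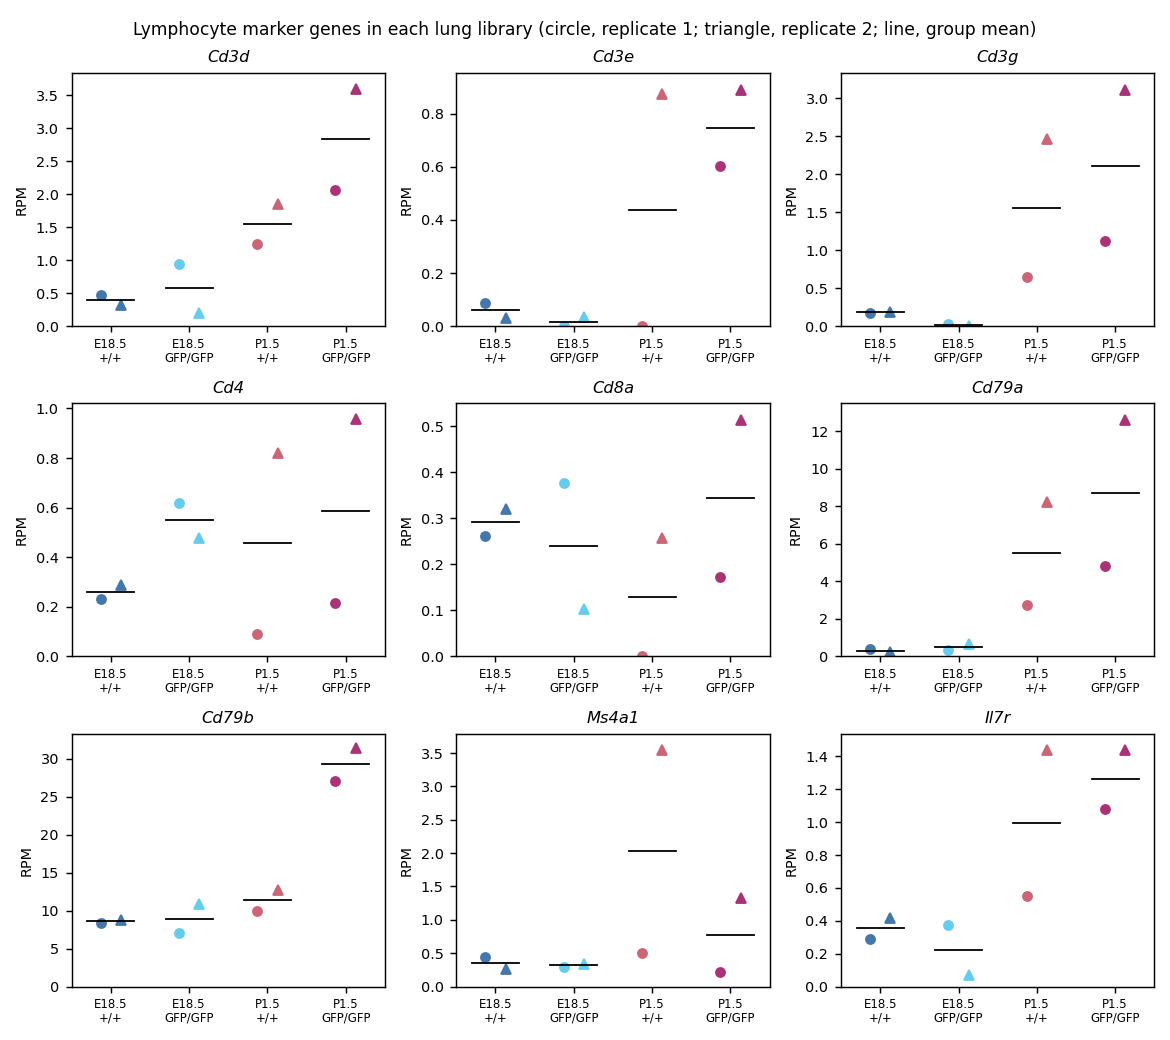
Level of each of the 9 marker genes in RPM (vertical axis, linear from 0) in the 8 lung libraries, by stage and genotype on the horizontal axis. Circles are replicate 1, triangles are replicate 2 and lines are the means of 2 libraries. Cd3d, Cd3g, Cd79a and Il7r were higher in all 4 P1.5 libraries than in all 4 E18.5 libraries, and at P1.5 the triangle lay above the circle for all 9 genes in both genotypes.

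Of the CD3 chains, Cd3d and Cd3g were higher after birth, and Cd3e did not pass the test. At E18.5, reads of Cd3d numbered 16 and 10 in Wfdc2 +/+ (replicates 1 and 2 in this order, here and below) and 35 and 6 in Wfdc2 GFP/GFP. At P1.5 they numbered 27 and 36 in the Wfdc2 +/+ libraries, with 48 and 105 in Wfdc2 GFP/GFP. In RPM the E18.5 libraries ran from 0.205 to 0.941 and the P1.5 libraries from 1.24 to 3.59, so that the stages did not overlap, and the mean was 4.53-fold higher at P1.5. Cd3g had 6 and 6 reads in E18.5 Wfdc2 +/+, 1 and 0 in E18.5 Wfdc2 GFP/GFP, 14 and 48 in P1.5 Wfdc2 +/+, and 26 and 91 in P1.5 Wfdc2 GFP/GFP. Its RPM ran from 0 to 0.192 at E18.5 and from 0.645 to 3.11 at P1.5, again without overlap. In limma's moderated test over 15627 genes, Cd3g rose by 4.40 in log2 RPKM from E18.5 to P1.5 (SE 0.54, adjusted p = 0.0133) and Cd3d rose by 2.30 (SE 0.52, adjusted p = 0.0474). The call of Cd3d was lost with voom (limma adjusted p = 0.0511) and without a filter (limma adjusted p = 0.0797). The size for Cd3g rests in part on the E18.5 library without reads, which the authors' table enters as 0.9 read, and with a pseudocount of 0.1 or 1 RPKM it was 1.21 (limma adjusted p = 0.046) or 0.21 (limma adjusted p = 0.0764).

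Cd3e was near the limit of detection before birth. It had 3 and 1 reads in E18.5 Wfdc2 +/+ and 0 and 1 in E18.5 Wfdc2 GFP/GFP. At P1.5 the Wfdc2 +/+ animals had 0 and 17 reads, and the Wfdc2 GFP/GFP animals had 14 and 26. Thus 3 of the 4 P1.5 libraries were above all E18.5 libraries, and P1.5 Wfdc2 +/+ replicate 1, with 0 reads, was not. Without a filter its stage difference was 3.26 in log2 RPKM (SE 0.94, limma adjusted p = 0.0918). GENCODE M21 places an antisense gene, Gm48719, over 3557 bp of Cd3e, and whether the counting used strand is not given in the sources used here. It also places Gm48720 over 1206 bp of Cd3e on the same strand, an overlap that counting by strand cannot separate.

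For the coreceptor genes no difference between stages passed the test. Cd4 had 8 and 9 reads in E18.5 Wfdc2 +/+, 23 and 14 in E18.5 Wfdc2 GFP/GFP, 2 and 16 in P1.5 Wfdc2 +/+, and 5 and 28 in P1.5 Wfdc2 GFP/GFP. Cd8a had 9 and 10, then 14 and 3, then 0 and 5, then 4 and 15 reads in the same order of groups. For both genes the stages overlapped over most of their range. The stage difference in log2 RPKM was -0.09 for Cd4 (SE 0.78, limma adjusted p = 0.939 without a filter) and -0.44 for Cd8a (SE 0.73, limma adjusted p = 0.648 without a filter). These errors leave room for differences of more than 1 in log2 RPKM in either direction. Over the 8 libraries, as a description, the Pearson correlation of log2 RPKM was 0.73 between Cd4 and Cd8a, 0.77 to 0.86 among the CD3 chains, and 0.07 to 0.39 between the coreceptors and the CD3 chains. The 8 points share stage and library depth.

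Among the B cell receptor chains, Cd79a had the largest stage difference. It had 13 and 7 reads in E18.5 Wfdc2 +/+, 12 and 20 in E18.5 Wfdc2 GFP/GFP, 60 and 160 in P1.5 Wfdc2 +/+, and 112 and 368 in P1.5 Wfdc2 GFP/GFP. This is 0.225 to 0.684 RPM at E18.5 against 2.76 to 12.6 RPM at P1.5, with the mean 17.7-fold higher, and no library of one stage reached those of the other. Cd79a rose by 4.04 in log2 RPKM (SE 0.51, limma adjusted p = 0.0144). Cd79b had 288 and 275 reads in E18.5 Wfdc2 +/+, 260 and 319 in E18.5 Wfdc2 GFP/GFP, 217 and 247 in P1.5 Wfdc2 +/+, and 628 and 919 in P1.5 Wfdc2 GFP/GFP. The P1.5 Wfdc2 +/+ libraries, at 9.99 and 12.7 RPM, lay within or just above the E18.5 range of 6.99 to 10.9 RPM, and the P1.5 Wfdc2 GFP/GFP libraries, at 27.1 and 31.4 RPM, lay far above it. Averaged over genotypes Cd79b rose by 1.07 in log2 RPKM (SE 0.23, limma adjusted p = 0.0442).

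The products of Cd79a and Cd79b pair in one complex, yet their reads did not keep one ratio. There were 15.9 to 39.3 reads of Cd79b for each read of Cd79a in the E18.5 libraries. At P1.5 the ratio was 3.62 and 1.54 for Wfdc2 +/+, with 5.61 and 2.5 for Wfdc2 GFP/GFP, below every E18.5 value. Cd79b supplied 91.1% to 94.8% of the reads of the 3 B cell genes at E18.5 and 51.9% to 84.3% at P1.5. A sum over these genes is thus mostly a measure of Cd79b. No other gene of GENCODE M21 overlaps Cd79a or Cd79b.

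**Figure D2:**
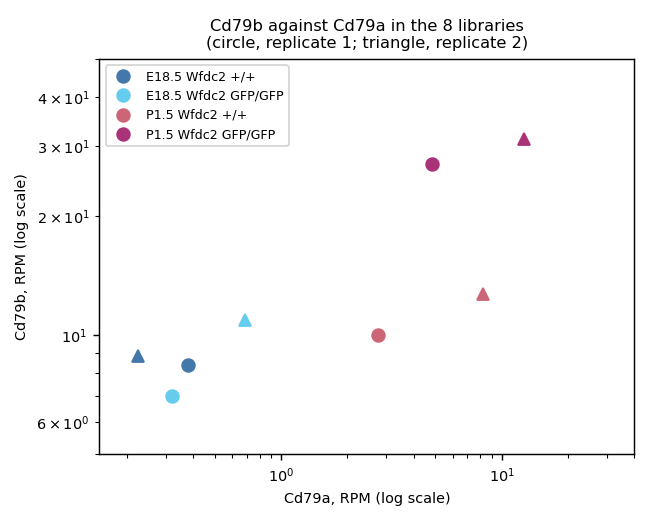
Level of Cd79b against Cd79a in RPM in the 8 lung libraries, both axes on a log scale. From E18.5 to P1.5 the Wfdc2 +/+ libraries moved mainly along the Cd79a axis, while both P1.5 Wfdc2 GFP/GFP libraries also lay higher on the Cd79b axis, at 27.1 and 31.4 RPM.

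Ms4a1 was at 15 and 8 reads in E18.5 Wfdc2 +/+, 11 and 10 in E18.5 Wfdc2 GFP/GFP, 11 and 69 in P1.5 Wfdc2 +/+, and 5 and 39 in P1.5 Wfdc2 GFP/GFP. Both P1.5 replicates 2 were above all other libraries, at 3.55 and 1.33 RPM, and both P1.5 replicates 1, at 0.507 and 0.216 RPM, lay near the E18.5 range of 0.257 to 0.436 RPM. Its stage difference was 1.38 in log2 RPKM (SE 0.77, limma adjusted p = 0.21). An antisense gene, 4930526L06Rik, overlaps its whole span of 15549 bp in GENCODE M21. Il7r had 10 and 13 reads in E18.5 Wfdc2 +/+, 14 and 2 in E18.5 Wfdc2 GFP/GFP, 12 and 28 in P1.5 Wfdc2 +/+, and 25 and 42 in P1.5 Wfdc2 GFP/GFP. After scaling by depth it ran from 0.0684 to 0.417 RPM at E18.5 and from 0.553 to 1.44 RPM at P1.5, without overlap. The difference was 2.16 in log2 RPKM (SE 0.60, limma adjusted p = 0.0918 without a filter).

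Between the stages, Cd3d, Cd3g, Cd79a and Cd79b rose at P1.5 at a limma adjusted p under 0.05, and 0 of the marker genes fell, where 2.58% of the 15627 genes tested rose and 2.56% fell. Since the filter admitted Cd3g and Ms4a1 through P1.5 alone and left out Cd4 and Cd8a, no share of the marker genes is read from this. The median difference of all genes tested was -0.32 in log2 RPKM. Centring each library on its median put Cd79b at 1.54 and Cd79a at 4.51, and quantile normalization put them at 1.15 and 4.31. In RPM, 4 of the 9 genes, Cd3d, Cd3g, Cd79a and Il7r, had all P1.5 libraries above all E18.5 libraries, against 6.67% of the 17493 genes that, like these 9, had reads in at least 6 libraries. For each of these 4 genes, a two-sided exact permutation test (4 libraries of each stage) gave p = 0.0286, the smallest it allows and not adjusted for the 9 tests made. The same exact permutation test gave p = 0.0571 for Cd3e and Cd79b, 0.229 for Ms4a1, 0.657 for Cd8a and 0.943 for Cd4. Without a filter on low values, Cd3g (limma adjusted p = 0.0257) and Cd79a (limma adjusted p = 0.0296) were the 2 of 9 that passed, where 0.801% of 25965 genes rose, and Cd79b (limma adjusted p = 0.0723) and Cd3d (limma adjusted p = 0.0797) did not.

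The count of 4 depended on single libraries, as did the count over all genes, which was 803 and ran from 28 to 7125. Of the marker genes, 1 passed without E18.5 Wfdc2 +/+ replicate 1, without E18.5 Wfdc2 +/+ replicate 2 or without P1.5 Wfdc2 GFP/GFP replicate 1, where 31, 55 and 28 genes passed in all. None passed without E18.5 Wfdc2 GFP/GFP replicate 1 or without P1.5 Wfdc2 GFP/GFP replicate 2, where 71 and 41 genes did. Without P1.5 Wfdc2 +/+ replicate 1 the count was 3 of 613, and it was 4 of 3156 and 4 of 7125 without E18.5 Wfdc2 GFP/GFP replicate 2 and P1.5 Wfdc2 +/+ replicate 2. Calls were lost over all genes in the same runs as over the marker genes. With each library left out the differences kept their direction, from 3.92 to 4.89 in log2 RPKM for Cd3g, 3.65 to 4.44 for Cd79a, 1.75 to 2.85 for Cd3d and 0.91 to 1.23 for Cd79b.

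**Figure D3:**
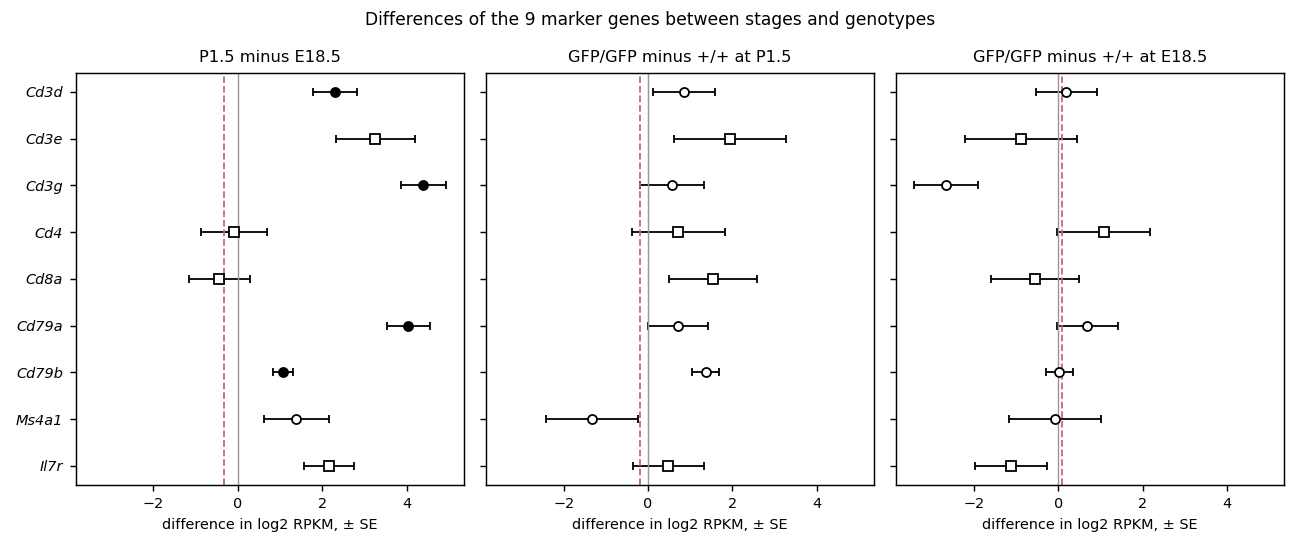
Difference in log2 RPKM with its standard error (horizontal axis) for each marker gene, between stages on the left and between genotypes at P1.5 and E18.5 in the middle and on the right. Filled circles passed a limma adjusted p under 0.05, open circles did not, squares are the 4 genes fitted without a filter and the dashed line is the median of all genes tested. Filled symbols occur only between stages, for Cd3d, Cd3g, Cd79a and Cd79b.

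At P1.5 none of the marker genes passed the test between genotypes, 0 of the 5 tested against 0.0128% of all genes tested (2 of 15627, by limma), and 0 of 9 without a filter. At an unadjusted p under 0.05, 1710 genes passed, Cd79b among the markers, and voom on the recovered reads called 0 genes. Cd79b was 2.58-fold higher on average in Wfdc2 GFP/GFP, 29.3 against 11.3 RPM, with both libraries above both Wfdc2 +/+ libraries. The difference was 1.37 in log2 RPKM (SE 0.32, limma adjusted p = 0.274), and 1.20 to 1.55 with each library left out. Cd3d was 1.83-fold higher, also without overlap, at 0.85 in log2 RPKM (SE 0.73, limma adjusted p = 0.725). Thus 2 of 9 genes had both Wfdc2 GFP/GFP libraries above both Wfdc2 +/+ libraries, against 12.6% of the genes with reads in at least 6 libraries. With 2 libraries against 2, an exact permutation test cannot go below p = 0.333, so none was made for the genotypes.

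For the other 7 genes the genotypes overlapped at P1.5. Cd79a differed by 0.71 in log2 RPKM (SE 0.72, limma adjusted p = 0.775) and Cd3g by 0.57 (SE 0.76, limma adjusted p = 0.79). Ms4a1 was the 1 gene of 9 with a lower mean in Wfdc2 GFP/GFP, 0.774 against 2.03 RPM, at -1.32 in log2 RPKM (SE 1.09, limma adjusted p = 0.711). Without P1.5 Wfdc2 +/+ replicate 2, which held 69 reads of Ms4a1, that difference was 0.08. Cd79a fell to -0.08 and Cd3g to -0.40 without P1.5 Wfdc2 +/+ replicate 1, and Cd3g was at -0.17 without P1.5 Wfdc2 GFP/GFP replicate 2. Without a filter, Cd3e differed by 1.95 (SE 1.33, limma adjusted p = 0.514), Cd8a by 1.53 (SE 1.04, limma adjusted p = 0.514), Cd4 by 0.72 (SE 1.10, limma adjusted p = 0.727) and Il7r by 0.48 (SE 0.85, limma adjusted p = 0.763).

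Within P1.5, replicate 2 was above replicate 1 for all 9 genes in both genotypes. Of the genes with reads in at least 6 libraries, 53.8% had this arrangement in RPM. After centring each library on its median it held for 7 of the 9 markers, and the share of all genes after centring is not given here. In Wfdc2 +/+ the ratio of replicate 2 to replicate 1 in RPM ran from 1.27 for Cd79b to 8.93 for Cd4, leaving out Cd3e and Cd8a, which had 0 reads in replicate 1. In Wfdc2 GFP/GFP it ran from 1.16 for Cd79b to 6.18 for Ms4a1. At E18.5 the arrangement held for 1 of 9, without a share over all genes to set beside it. Replicate 1 was Xist positive and replicate 2 was not, and the part of sex in this difference was not tested.

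Before birth, 0 of the 5 marker genes tested passed between genotypes, where 0.0192% of all genes tested did (3 of 15627, by limma), 683 genes had an unadjusted p under 0.05, and voom called 0. Cd3g was lower in both Wfdc2 GFP/GFP libraries, with 1 and 0 reads against 6 and 6, the 1 gene of 9 with that arrangement, which 10.5% of the genes with reads in at least 6 libraries had. Its difference of -2.67 in log2 RPKM (SE 0.76, limma adjusted p = 0.662) depends on the value entered for 0 reads. Cd4 was higher in both, at 23 and 14 reads against 8 and 9, an arrangement that 27.6% of those genes had (1.07 in log2 RPKM, SE 1.10, limma adjusted p = 0.999 without a filter). The other 7 overlapped. Cd79b was close to equal, at 8.59 RPM in Wfdc2 +/+ and 8.95 RPM in Wfdc2 GFP/GFP on average (0.02 in log2 RPKM, SE 0.32, limma adjusted p = 1).

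The difference between the genotype effects of the 2 stages was tested as an interaction. It passed for 0 of the 5 marker genes, as it did for 0 of all 15627 genes (0%) in limma and with voom, with 1599 genes at an unadjusted p under 0.05. Among the 5, Cd3g had 3.24 in log2 RPKM (SE 1.08, limma adjusted p = 0.362) and Cd79b 1.35 (SE 0.46, limma adjusted p = 0.366), and the others ran from -1.25 to 0.66. Without a filter the interaction was 2.82 for Cd3e (SE 1.89), 2.09 for Cd8a (SE 1.47), 1.60 for Il7r (SE 1.20) and -0.35 for Cd4 (SE 1.56), and none passed (limma adjusted p = 0.678 for the first 3 and 0.916 for Cd4). For Cd3g the larger genotype difference was at E18.5, and for Cd79b it was at P1.5.

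The 17 other genes of T cell receptor signalling that were listed gave a mixed picture. The filter used the mean over both stages, so a gene low at E18.5 could enter the test through its P1.5 values, and 9 were left out. No share of this list, or of those below, is therefore read from the genes tested. Of the 8 tested, 3 passed as higher at P1.5 and 0 as lower, with a median difference of 0.92 in log2 RPKM. The most abundant were Tcf7, a transcription factor also present outside T cells (-0.94, limma adjusted p = 0.166), Lcp2, an adaptor shared with myeloid cells (-0.15, limma adjusted p = 0.84), Fyb, another such adaptor (0.66, limma adjusted p = 0.23), and Lat, the adaptor that links the receptor to its downstream signals (2.43, limma adjusted p = 0.0174). Named after their values were seen, the other 2 that rose were Cd2, an adhesion molecule of T and NK cells (3.24, limma adjusted p = 0.0172), and Zap70, the kinase that binds phosphorylated CD3 and zeta chains (1.85, limma adjusted p = 0.0327). Cd247, which encodes the zeta chain of the same receptor complex, was at 0.35 (limma adjusted p = 0.715 without a filter). Cd2 had 9 and 4 reads in E18.5 Wfdc2 +/+, 12 and 15 in E18.5 Wfdc2 GFP/GFP, 28 and 52 in P1.5 Wfdc2 +/+, and 61 and 141 in P1.5 Wfdc2 GFP/GFP.

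Between genotypes at P1.5, 0 of these 8 genes passed. Cd5, a surface molecule of T cells and of some B cells, is named here after its values were seen. It did not meet the filter, and had 17 and 15 reads in P1.5 Wfdc2 +/+ against 1 and 2 in P1.5 Wfdc2 GFP/GFP, with 9 to 17 reads at E18.5. Without a filter it fell by 3.84 in log2 RPKM in Wfdc2 GFP/GFP (limma adjusted p = 0.0371), a size that rests on 1 and 2 reads. This was opposite in direction to the CD3 chains, whose differences were 0.57 to 1.95.

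Of the 17 other B lineage genes listed, 15 were found and 7 tested. Here too a gene low at E18.5 could enter the test through its P1.5 values, and 8 of the genes found were left out. Of those tested, 3 passed as higher at P1.5 and 0 as lower, with a median of 2.27 in log2 RPKM. The most abundant were Ebf1, a transcription factor that stromal cells share (-0.07, limma adjusted p = 0.921 without a filter), Cd37, a tetraspanin (1.79, limma adjusted p = 0.0462), Cd22, an inhibitory coreceptor (2.27, limma adjusted p = 0.0524), and Fcrla, an intracellular protein of the Fc receptor family in B cells (3.43, limma adjusted p = 0.0258). Cd72, another inhibitory coreceptor (3.23, limma adjusted p = 0.0441), was the remaining gene that rose and is named after its values were seen. Cd72 had 3 to 15 reads at E18.5, 16 and 39 in P1.5 Wfdc2 +/+ and 39 and 96 in P1.5 Wfdc2 GFP/GFP. Pax5, the transcription factor that fixes B cell identity, had 0 to 5 reads at E18.5, 1 and 55 in P1.5 Wfdc2 +/+ and 1 and 14 in P1.5 Wfdc2 GFP/GFP. For Pax5, replicate 2 was the higher in each P1.5 group, as it was for Ms4a1. At P1.5, 0 of the 7 passed between genotypes, and their median difference was 0.39. Ighm and Ighd were not analysed here.

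The 4 genes of B cell precursors all met the filter, but Vpreb2 had 1 read in 1 library and 0 in the others, so its test rests on the value entered for no reads. Of the other 3, 1 rose. This was Vpreb3 (2.05, limma adjusted p = 0.0386), a chaperone of the pre-B cell receptor. Vpreb1 (0.79, limma adjusted p = 0.14) and Igll1 (-0.22, limma adjusted p = 0.689), which form the surrogate light chain, did not pass. Of the 13 genes of interleukin-7 and common gamma chain signalling, 10 were tested, 1 rose and 0 fell, and the median was 0.07. The most abundant were Jak1 (-0.85, limma adjusted p = 0.106) and Stat5b (-0.89, limma adjusted p = 0.104), a kinase and a transcription factor downstream of the receptor, Il4ra (1.05, limma adjusted p = 0.0442), which pairs with the common chain for interleukin-4, and Il2rg (0.01, limma adjusted p = 0.98), the common chain itself. The cytokine gene Il7 had 32 to 66 reads at E18.5 and 16 to 53 at P1.5. At P1.5, 0 genes of these 2 lists passed between genotypes.

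Marker lists of other cells moved with some of these differences, and their part in them was not tested. The 8 genes shared by all leucocytes summed to 70.2 to 189 RPM at E18.5, 216 and 280 RPM in P1.5 Wfdc2 +/+, and 398 and 463 RPM in P1.5 Wfdc2 GFP/GFP, the same order of groups as for Cd79b at P1.5. Of these 8, 1 rose between stages (Coro1a, 1.73, limma adjusted p = 0.0458) and 0 passed between genotypes at P1.5, where 7 of 8 were higher with a median of 0.58. The 12 genes of macrophages, monocytes and dendritic cells summed to 237 to 802 RPM at E18.5 and 647 to 1321 RPM at P1.5, and 0 of the 10 tested passed between stages. Of the lists examined, the 8 neutrophil genes had the largest ratio of summed RPM across birth, 53.2 to 84.7 RPM against 642 to 1763 RPM. All 8 had differences above 0, and 6 of them passed as higher at P1.5. Within P1.5 their sum was higher in replicate 1 than in replicate 2 in both genotypes, as were 4 of the 8 genes, S100a8, S100a9, Mpo and Camp.

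The thymus lies close to the lung, so its markers were examined. The thymocyte list had 9 of 10 genes in the table. Dntt had 0 to 2 reads in all libraries and Cd8b1 had 0 reads apart from 6 in P1.5 Wfdc2 +/+ replicate 2. Other members had more, with 0 to 23 reads of Rag1, 3 to 20 of Rag2 and 2 to 27 of Ccr9. Of the 3 tested, 1 rose between stages, Rag2 (1.85, limma adjusted p = 0.0431). Ptcra was not analysed here. Of the 5 thymic epithelial genes, Foxn1 had 0 to 6 reads, and 0 of the 4 tested passed. E18.5 Wfdc2 GFP/GFP replicate 1 had the highest sum of this list, 33.3 RPM against 7.21 to 13.7 RPM in the others, with 1073 reads of Ccl25. Of the thymocyte genes it had 23 reads of Rag1, 17 of Rag2 and 27 of Ccr9, but 0 of Cd8b1, 1 of Dntt and 2 of Themis. The same library had the highest E18.5 values of Cd3d, Cd4 and Cd8a, but 0 reads of Cd3e and 1 of Cd3g, and the lowest leucocyte sum. It held 298 reads of Bcl11b against 55 to 80 in the other E18.5 libraries, and 1571 of Scgb1a1 against 17832 to 29018. Without this library the ratio of P1.5 to E18.5 in mean RPM was 6.63 for Cd3d, 1.57 for Cd4 and 1.03 for Cd8a. With all libraries it was 4.53, 1.29 and 0.888.

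Of the 4 NK and cytotoxic genes tested between stages, 0 passed as higher at P1.5 and 1 passed as lower. This was Gzmb (-4.05, limma adjusted p = 0.042), with 96 to 237 reads at E18.5 and 1 to 24 at P1.5. The other 3 had differences above 0, and the median of the 4 was 2.64 in log2 RPKM. The NK receptor gene Ncr1 had 0 to 7 reads in every library and Eomes 1 to 6, with 3 to 154 of Gzma and 1 to 42 of Ccl5. Of the genes of group 2 innate lymphoid cells, which also use the interleukin-7 receptor, 0 of the 2 tested passed. In that list Il5 and Klrg1 had 0 to 2 reads, Il13 0 to 8 and Il17rb 0 to 22. Il1rl1 had 8 to 85, Gata3 21 to 110 and Areg 51 to 2098. Of the 4 erythroid genes found among the 6 listed, 0 passed, and of the 8 genes of lung epithelium, endothelium and fibroblasts 1 rose, Scgb1a1 (4.29, limma adjusted p = 0.033), a secretory protein of club cells. In none of these lists did a gene that met the filter pass between genotypes at P1.5.

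**Figure D4:**
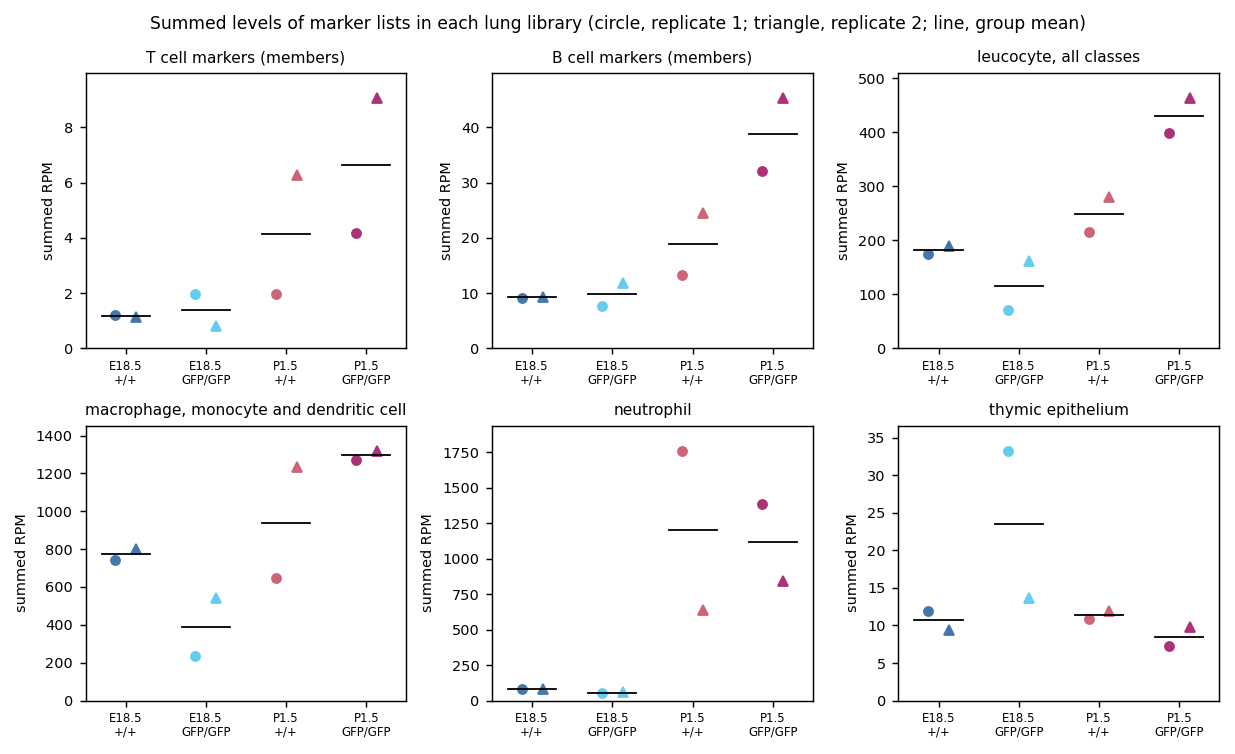
Summed RPM of the T and B cell marker genes and of 4 lists of other cells (vertical axes, linear from 0) in the 8 lung libraries, by stage and genotype. Circles are replicate 1, triangles are replicate 2 and lines are means. The leucocyte sum at P1.5 was 216 and 280 RPM in Wfdc2 +/+ and 398 and 463 RPM in Wfdc2 GFP/GFP, and the thymic epithelial sum was highest in E18.5 Wfdc2 GFP/GFP replicate 1.

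Summed over the 5 T cell genes, levels were 1.22, 1.15, 1.96 and 0.821 RPM at E18.5, 1.98 and 6.27 RPM in P1.5 Wfdc2 +/+, and 4.19 and 9.06 RPM in P1.5 Wfdc2 GFP/GFP. For the 3 B cell genes they were 9.18, 9.3, 7.61 and 11.9 RPM at E18.5, 13.3 and 24.5 RPM in P1.5 Wfdc2 +/+, and 32.2 and 45.3 RPM in P1.5 Wfdc2 GFP/GFP. At P1.5 the B cell sum did not overlap between genotypes, and the T cell sum overlapped when both replicate numbers were pooled. Without Cd79b, the B cell sum was 3.27 and 11.8 RPM in P1.5 Wfdc2 +/+ and 5.05 and 13.9 RPM in P1.5 Wfdc2 GFP/GFP, and the genotypes overlapped in the same way. Within each replicate number, and so within each sex, the Wfdc2 GFP/GFP animal was above the Wfdc2 +/+ animal at P1.5 in the T cell sum, in the B cell sum with or without Cd79b, and in 7 of the 9 genes, all but Ms4a1 and Il7r, an arrangement that 21.5% of the genes with reads in at least 6 libraries had.

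Among 14129 other genes, those whose log2 RPKM followed the T cell sum most closely over the 8 libraries were Snrpb2 (Pearson r = 0.966), Pla2g7 (0.964), Ptprj (0.947), Cd300a (0.934) and Abca4 (0.924). For the B cell sum they were Tagln (0.983), Il18rap (0.981), Tuba1b (0.974), Cd300lf (0.972) and C4b (0.968), and for Il7r they were Sema3c (0.951), Dnajc2 (0.927), Id4 (0.915), Sgk1 (0.894) and Sgms2 (0.884). None of these is in the T or B cell lists. For Cd79a alone, a choice made after the data were seen, the closest were Cd2 (0.987), 6330512M04Rik (0.978), Tnfsf14 (0.975), Mrps33 (0.970) and Ptprcap (0.969), of which Cd2 is in the T cell list. With 8 libraries and this many genes, high values of r are common, and they are given as a description.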

How the data were processed

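Lung total RNA of 8 mice was made into strand-marking libraries (NEBNext Ultra Directional) and sequenced by the authors. Per the methods and the submitters' processing notes, reads were trimmed (NGS QC Toolkit, Trim Galore 0.4.0), mapped to mm10 with TopHat2 2.1.1 and counted in SeqMonk. What the authors deposited are log2 RPKM values, 1 column per library. A check of the values showed that kilobases count the whole gene span and that a gene without reads carries 0.9 read. Reads were recovered from the steps of each library, and 99.86% to 99.96% of values lay within 0.02 of a whole number.

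Groups were taken from the labels. The log2 RPKM, without a pseudocount, of genes averaging 0.05 RPKM or more entered a limma fit (limma 3.58.1, R 4.3.3) with a mean for each group, a prior spread that follows a trend and 4 residual degrees of freedom. P-values are two-sided, adjusted by the Benjamini-Hochberg method over all genes tested, with a threshold of 0.05. They measure the spread between 2 animals per group, which also differed in Xist reads. The fit was also run on simulated data with known changes, larger than those of the marker genes and with a spread set in advance. That run cannot show how well differences of the size and spread seen here are found. The 9 markers and the gene lists were chosen with earlier results of these data known. Named are the 9 markers, the 4 genes of the T cell receptor, B lineage and interleukin-7 lists with the most reads, and the 5 genes most alike in pattern. Other list genes were named after their values were seen. Adgre1 was found under an older symbol. A gene of the B lineage list is not reported here and was left out of its counts. Positions are those of the deposited table, overlaps are from GENCODE M21 and promoters are from RefSeq. Alternatives were other pseudocounts, filters, scalings, blocks and priors, voom on the recovered reads, 1 stage alone and each library left out. Tables, permutation tests and figures used scipy 1.17.1, pandas 2.3.3, matplotlib 3.10.9 and numpy 2.4.6 in Python 3.11.15.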

Additional observations from a re-analysis of the deposited data

How the results depend on the processing

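Depth limits several of these genes, since Cd3e, Cd3g, Cd4, Cd8a and Il7r had at most 3 reads in at least 1 library each. Of the marker genes, 0 passed between genotypes at P1.5, between genotypes at E18.5 or in the interaction under every alternative run. Between stages 4 passed. The count was 3 with a pseudocount of 1 RPKM, which lost Cd3g. It was 2 with a mean of at least 0.5 RPKM (Cd79a and Cd79b), and 2 (Cd3g and Cd79a) without a filter, with a prior without a trend, with voom and with the replicate number as a block. It was 0 to 4 with each library left out. The causes were not tested. Leaving out a library leaves a lone sample in its group, which the fit assumes to vary like the other groups.

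Same-numbered libraries deviated together within a stage (r = 0.23 at E18.5 and 0.21 at P1.5). Across stages r was -0.29 to 0.08, which does not bear on pairing within a stage. The paper calls the Wfdc2 +/+ samples littermate controls, but the labels do not say that the number marks a litter. The numbers were therefore not taken to pair the samples in the main fit, and pairing within a stage was left to the replicate block within stage. The replicate number nevertheless went with sex, as marked by Xist, in every group. The main fit therefore leaves sex in its spread, and the fits with a replicate block are those that take it into account. With the replicate block the genes called were 287 between stages, 0 at P1.5, 0 at E18.5 and 0 in the interaction, and with the replicate block within stage they were 4990, 9, 1 and 0, with 5 marker genes called between stages.

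The genes called between stages were 803, against 461 with a pseudocount of 1 RPKM, 428 without a filter, 1684 at 0.5 RPKM, 1842 with median centring, 1278 with quantile normalization, 527 without a trend, and 28 to 7125 with a library left out. For genotype at P1.5 they were 2, against 11 and 5 with pseudocounts of 0.1 and 1, 21 without a filter, 5 without a trend, 0 with median centring, quantile normalization, voom or the stage alone, and 0 to 24 with a library left out. At E18.5 they were 3, against 6 with a pseudocount of 0.1, 22 without a filter, 1 at 0.5 RPKM, 8 without a trend, 0 with median centring, quantile normalization or voom, 1 with the stage alone, and 0 to 1 with a library left out. The interaction gave 0, and 0 to 2 with a library left out.

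Signs of differences that had not passed changed as follows, in log2 RPKM. With each library left out, the difference at P1.5 ran from -0.40 to 1.54 for Cd3g, -0.08 to 1.5 for Cd79a and -2.72 to 0.08 for Ms4a1. At E18.5 it ran from -0.91 to 1.28 for Cd3d, -0.30 to 0.34 for Cd79b and -0.45 to 0.31 for Ms4a1, and in the interaction from -0.44 to 1.76 for Cd3d, -0.77 to 0.81 for Cd79a and -2.65 to 0.16 for Ms4a1. At E18.5, Cd3d was at -0.02 with median centring and -0.18 with quantile normalization, and Cd79b was at -0.19 and -0.20.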
